A study of Mus musculus with 6 samples.

Results

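The 10 genes Sag, Grk1, Rcvrn, Rgs9, Rgs9bp, Gnb5, Gucy2e, Guca1a, Guca1b and Slc24a1 encode the proteins that end the light response of rods or carry its calcium feedback. They were taken by name, with every probe set that the platform annotation assigns to 1 of them alone, which gave 14 probe sets for 10 of the 18193 genes with a probe set of their own. RNA of whole retinas from albino BALB/c mice was measured on 6 Affymetrix arrays. The 3 light damaged samples came from mice kept in darkness for 1 week and then exposed to white fluorescent light of 6000 lux over 6 h, with collection 24 h afterwards, and the 3 dark adapted samples from mice that had the week of darkness alone. No label ties a replicate to its own animal, so the spread behind the p-values may be only technical.

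Light turns rhodopsin into an active form that drives the G protein transducin and, through it, a phosphodiesterase that breaks down cyclic GMP, so that the cyclic GMP gated channels close and calcium in the outer segment drops. The response ends when rhodopsin kinase phosphorylates rhodopsin and arrestin covers it, and when a GTPase activating complex of RGS9, its G protein beta 5 partner and the membrane anchor R9AP switches transducin off. Low calcium releases the kinase from recoverin and lets the guanylate cyclase activating proteins stimulate the cyclase that restores cyclic GMP, while a sodium/calcium-potassium exchanger removes calcium. Mice that lack arrestin or rhodopsin kinase are known to be sensitive to light damage.

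The defining markers of rods had a mean above the upper quartile of all probe sets (7.41 to 7.67) on every array, although Prph2, an outer segment disc rim gene among them, read 6.59, 5.87 and 6.48 on the light damaged arrays, against 7.97, 7.23 and 6.85 on the dark adapted arrays. The rod identity list averaged 10.82, 10.38 and 10.48 on the 3 light damaged arrays, against 11.54, 11.28 and 10.97 on the dark adapted arrays (mean log2 level of 8 genes, made by RMA, robust multi-array average). The arrays stood apart in their lens genes. The mean of 10 lens markers, crystallins and fibre cell genes, was 10.23, 10.49 and 11.72 on the light damaged arrays 1 to 3, against 10.36, 11.20 and 11.80 on the dark adapted arrays 1 to 3, so the arrays numbered 3 were the highest of their groups. No lens gene passed the test across all genes (0 of 10, with 0 at an unadjusted p under 0.05, limma), and 3 fell with the replicate number as a block; Bfsp1 had the smallest p (-1.12 ± 0.77, SE). The retinal pigment epithelium list averaged 6.42, 7.03 and 6.35, against 6.33, 6.19 and 6.66, and its Lrat probe set was under the lower quartile on all 6 arrays, as was that of Hba-a1 in the blood cell list. In what follows, values are RMA levels and changes are light damaged minus dark adapted, both on the log2 scale. Since the retina is a mixture, fewer cells of a type and less RNA per cell cannot be told apart, in rods, cones or other cells.

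RNA of all 10 genes was lower on average in light damaged retinas, by 1.08-fold for Sag to 1.80-fold for Slc24a1, with a median change of -0.62 over the 10, against 0.03 over all genes. In the limma fit across all 18193 genes none of the 10 passed an adjusted p of 0.05 (adjusted p 0.0581 to 0.907), where 2.01% of all genes passed and 0.269% passed as lower; 7 of the 10 had an unadjusted p under 0.05, as did 2.42% of all genes in this direction. Negative changes made up 43% of all genes. In 4 of the 10 genes, Grk1, Rcvrn, Gucy2e and Slc24a1, all light damaged values lay below all dark adapted values, which held for 3.75% of all genes (15.6% in either direction). The titles number the replicates, and arrays of the same number deviated together. With that number as a block in the fit 8 of the 10 passed, all lower, where 8.87% of all genes passed and 2.13% passed as lower. This block rests on a pairing inferred from the same values, with no label behind it. Lower levels in all 3 same-numbered pairs were found in 9 of the 10 genes and in 16.8% of all genes. In the fit over all 45037 probe sets, where a smaller share passes, 0 of the 14 passed against 1.02% of all, and 5 passed with the block against 4.68% (1.2% as lower).

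**Figure D1:**
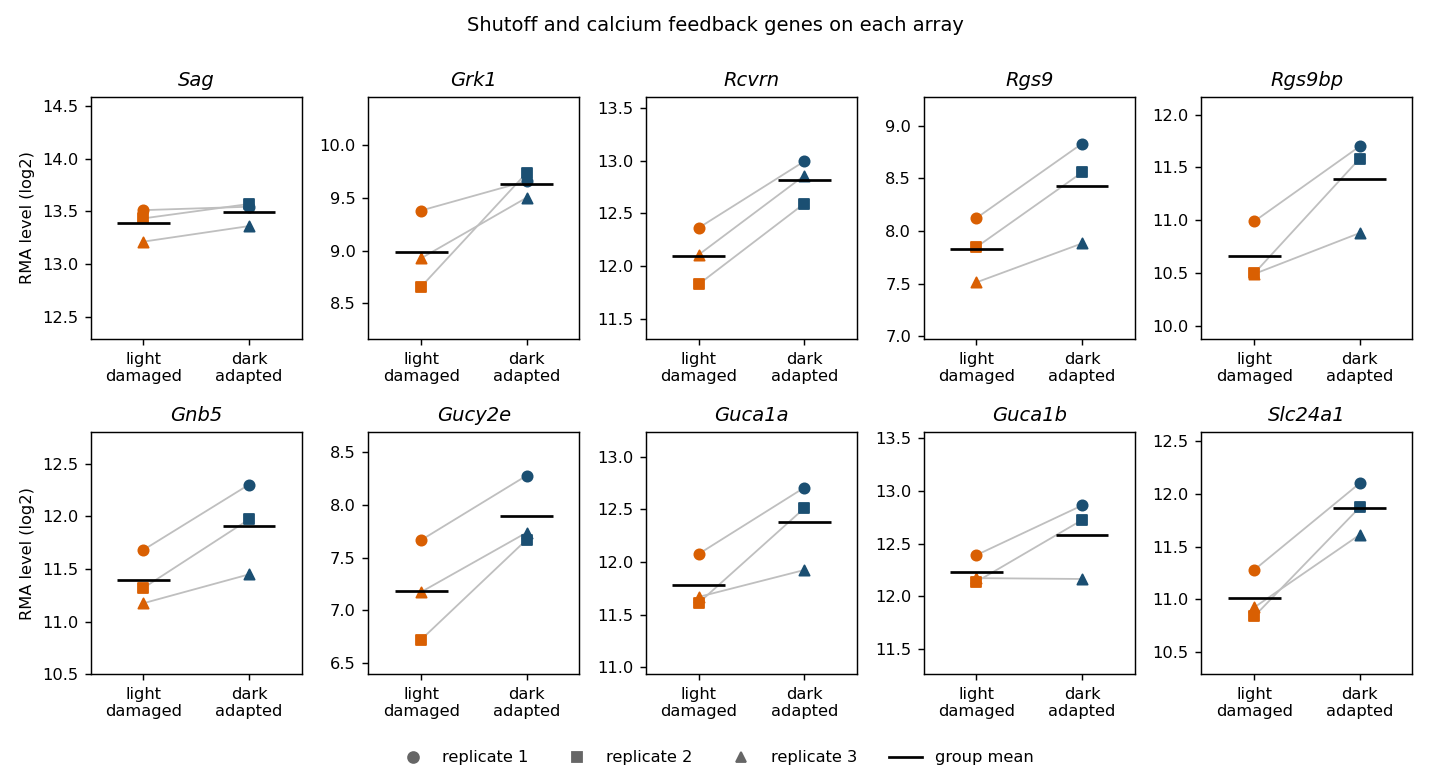
RMA level (log2 scale) of the 10 genes on each array, light damaged on the left and dark adapted on the right of each panel; every axis spans 2.3 units, the marker gives the replicate number, thin lines join arrays of the same number and black bars are group means of 3 arrays. Sag sits nearly level, while the lines of 8 other genes climb to the dark adapted side in every pair; in Guca1b the arrays numbered 3 are level.

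Rod arrestin, the product of Sag, caps phosphorylated rhodopsin, and its RNA differed least. Sag read 13.51, 13.43 and 13.21 on the light damaged arrays, against 13.54, 13.57 and 13.36 on the dark adapted arrays. These ranges overlap, although each light damaged value was below its same-numbered dark adapted one. The change was -0.11 ± 0.14 (SE, 95% interval -0.42 to 0.21), with limma adjusted p = 0.907, and 0.608 with the replicate block. Its direction was not stable to scaling, as quantile normalization of the values again gave 0.011 and centring on reference genes -0.28. Only 6 probe sets of the whole array had a higher mean than that of Sag. Its values lay 0.25 to 0.67 below the highest value of their array, and whether so high a level limited the change was not tested.

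Rhodopsin kinase, from Grk1, phosphorylates active rhodopsin so that arrestin can bind. Grk1 read 9.38, 8.66 and 8.93 in light damaged retinas, against 9.66, 9.74 and 9.50 in dark adapted retinas. The groups did not overlap, and the light damaged arrays spread more widely than the dark adapted ones (SD 0.37 and 0.12, n = 3 each). The change was -0.65 ± 0.19 (SE), a 1.56-fold lower level, with limma adjusted p = 0.189 and 0.0275 with the replicate block. The same-numbered pairs differed by -0.28, -1.08 and -0.58.

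Recoverin, the calcium sensor that holds rhodopsin kinase back at high calcium, differed by a similar amount in all 3 pairs. Rcvrn read 12.36, 11.83 and 12.11 in light damaged retinas, against 12.99, 12.59 and 12.86 in dark adapted retinas, without overlap. The 3 pairs differed by -0.63, -0.77 and -0.75. The change was -0.72 ± 0.18 (SE, 95% interval -1.12 to -0.31), a 1.64-fold lower level, with limma adjusted p = 0.103 and 0.00271 with the block.

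In the complex that switches transducin off, Rgs9 encodes the GTPase activating protein itself. Its probe set with the highest mean, 1439635_at, read 8.12, 7.85 and 7.51 in light damaged retinas, against 8.83, 8.56 and 7.88 in dark adapted retinas. The groups overlapped through the dark adapted array 3. The change was -0.59 ± 0.26 (SE, limma adjusted p = 0.452, and 0.0117 with the block). The other Rgs9 probe sets did not show it: 1426033_at gave -0.27 ± 0.42 and 1418691_at -0.05 ± 0.13 (SE), with adjusted p of 0.528 and 0.878 even with the block over all probe sets. The sign of 1426033_at rested on 1 array, as it gave 0.25 without light damaged replicate 2, where it read 6.23 against 7.88 and 7.72 on the other light damaged arrays. The Rgs9 difference thus holds for 1 of 3 probe sets.

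R9AP, from Rgs9bp, anchors RGS9 to the disc membrane and keeps it stable. Rgs9bp read 10.99, 10.49 and 10.49 in light damaged retinas, against 11.70, 11.58 and 10.88 in dark adapted retinas, where again array 3 alone reached into the light damaged range. The change was -0.73 ± 0.24 (SE), 1.66-fold lower, with limma adjusted p = 0.251 and 0.011 with the block.

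Gnb5 encodes the G protein beta 5 subunit, which binds RGS9 in photoreceptors and related RGS proteins in other neurons. Its probe set 1422208_a_at read 11.68, 11.32 and 11.18 in light damaged retinas, against 12.30, 11.97 and 11.45 in dark adapted retinas, with overlap. The change was -0.51 ± 0.23 (SE, limma adjusted p = 0.481, and 0.0251 with the block). A further probe set, 1447630_x_at, lay below the lower quartile of all 6 arrays and gave -0.21 ± 0.12 (SE), so it carries little information on the gene.

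Gucy2e encodes a retinal membrane guanylate cyclase that remakes cyclic GMP. It read 7.67, 6.72 and 7.18 in light damaged retinas, against 8.28, 7.67 and 7.74 in dark adapted retinas. The groups did not overlap, but only just, as the highest light damaged and the lowest dark adapted value were both 7.67. The change was -0.71 ± 0.26 (SE), 1.63-fold lower, with limma adjusted p = 0.322 and 0.00552 with the block.

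The cyclase activating proteins GCAP1 and GCAP2 come from Guca1a and Guca1b, which neighbour each other on chromosome 17. Guca1a read 12.08, 11.61 and 11.67 in light damaged retinas, against 12.71, 12.51 and 11.92 in dark adapted retinas (change -0.59 ± 0.22, SE; limma adjusted p = 0.345, and 0.0247 with the block). Guca1b read 12.39, 12.14 and 12.17 in light damaged retinas, against 12.86, 12.72 and 12.16 in dark adapted retinas (change -0.35 ± 0.20, SE; limma adjusted p = 0.626, and 0.154 with the block). Both overlapped between groups through dark adapted array 3, and in Guca1b the pair numbered 3 differed by 0.01 while the other pairs differed by -0.47 and -0.59. The further Guca1b probe set, 1425441_at, showed the same order, with pair differences of -0.47, -1.04 and 0.01 and a change of -0.50 ± 0.25 (SE). The 95% intervals of Guca1a (-1.11 to -0.08) and Guca1b (-0.80 to 0.10) overlap widely.

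Slc24a1, the exchanger that extrudes calcium from rod outer segments, had the largest difference of the 10. It read 11.28, 10.84 and 10.92 in light damaged retinas, against 12.10, 11.87 and 11.61 in dark adapted retinas, without overlap. The change was -0.85 ± 0.18 (SE, 95% interval -1.26 to -0.44), a 1.80-fold lower level, and 0.566% of all genes had a more negative change. It missed the threshold (limma adjusted p = 0.0581) and passed it with the replicate block (0.00159), with quantile normalization again (0.00441), with reference gene centring (0.012), without dark adapted replicate 3 (0.0463) and in the fit on mean probe set values per gene (0.0451).

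**Figure D2:**
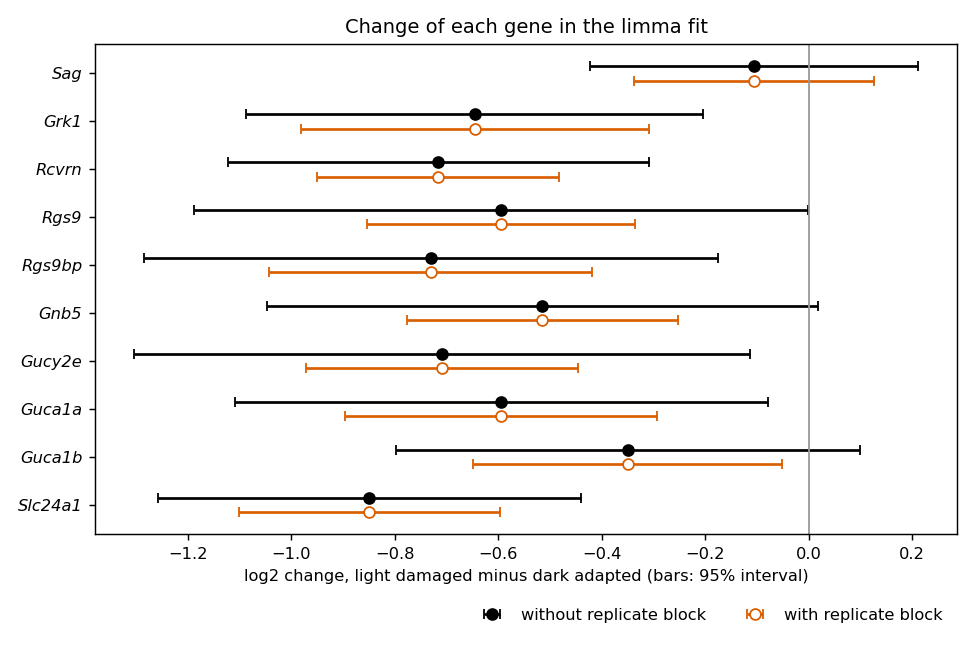
Change of each gene, light damaged minus dark adapted (log2), in the limma fit across all genes; points are estimates from 3 arrays a group and bars their 95% intervals, black without and orange with the replicate number as a block. The estimates lie between -0.85 (Slc24a1) and -0.11 (Sag), and only the intervals of Sag reach well past 0 in both fits.

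The steps of shutoff were set side by side as mean levels per array, without a test, since the genes were chosen with earlier results known. The kinase and recoverin step differed by -0.68, with pairs at -0.46, -0.92 and -0.66. The GTPase activating complex differed by -0.61, with pairs at -0.68, -0.82 and -0.34. The Rgs9 probe sets 1426033_at and 1418691_at, with changes of -0.27 and -0.05, are not part of that mean. The cyclase with its activators differed by -0.55, with pairs at -0.57, -0.81 and -0.27. These 3 steps lay within 0.13 of each other, less than the spread between their pairs. The change of the exchanger was more negative than that of the cyclase step by 0.30 (pairs at 0.25, 0.22 and 0.42), of the GTPase activating complex by 0.24 and of the kinase step by 0.17; within-array differences overlapped between the groups for the last 2 of these. Pair 2 gave the most negative difference in 9 of the 10 genes, and pair 3 the least negative in 7.

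The change of arrestin was less negative than that of the kinase step by 0.57, of the cyclase step by 0.44, of the exchanger by 0.74 and of the GTPase activating complex by 0.51, the last with overlapping groups (pairs at 0.65, 0.68 and 0.20). The change of Sag exceeded that of each other gene by 0.24 (Guca1b) to 0.74 (Slc24a1), and did so in all 3 pairs for 8 of the 9 genes, Guca1b being the exception. The within-array difference did not overlap between groups for 4 of the 9, Grk1, Rcvrn, Rgs9bp and Slc24a1. These differences were singled out after seeing the data and are a description. The share of all genes that differ from Sag in these ways was not computed. An exact permutation test of 3 arrays against 3 cannot go below p = 0.1. None of the 9 comparisons passed it after Benjamini-Hochberg adjustment (adjusted p 0.225 to 0.3).

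The 10 genes shared a pattern over arrays beyond the group difference. Light damaged array 1 was the highest of its group in all 10, dark adapted array 3 the lowest of its group in 8 and dark adapted array 1 the highest in 8. Dark adapted array 3 was also the array with the highest lens mean (11.80). Pair 2, the most negative in 9 of the 10 genes, differed most in its lens (-0.71) and pigment epithelium means (0.84). The part of lens or pigment epithelium RNA in these levels was not tested. Without dark adapted replicate 3 the median change of the 10 was -0.77 and 1 gene passed, where 0.451% of all genes passed as lower. Without light damaged replicate 1 the median was -0.79 and 0 passed, where 0.17% of all genes passed as lower. Without both arrays numbered 3, chosen after seeing the data, the median was -0.70 and 0 passed, where 0.055% of all genes passed as lower. Each gene correlated with the mean of the other 9 over the 6 arrays at a Pearson r of 0.720 (Sag) to 0.982 (Guca1a). These are descriptions of 6 arrays that share 2 groups and their numbering.

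**Figure D3:**
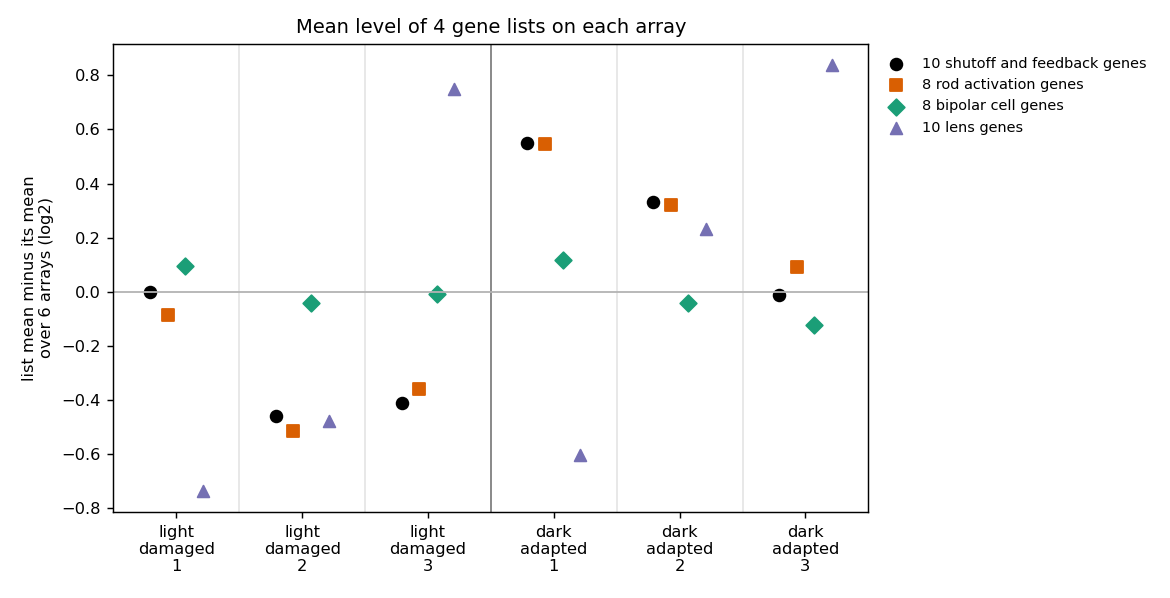
Mean log2 level of 4 gene lists on each of the 6 arrays, each list centred on its own mean over the arrays; arrays are named by group and replicate number. The shutoff and activation lists run together and are lower on light damaged than on same-numbered dark adapted arrays, bipolar cell genes vary little, and lens genes are highest on the arrays numbered 3.

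Outside the 10, the genes most like their mean pattern among 9086 genes of above-median level were Cnga1, a subunit of the rod cyclic GMP gated channel, at r = 0.9995, Lca5, a ciliary protein gene, at 0.997, N4bp2 at 0.996, Ndrg3 at 0.995 and Arhgef26 at 0.993 (Pearson, 6 arrays). Cnga1 read 11.11, 10.47 and 10.52 in light damaged retinas, against 11.84, 11.58 and 11.07 in dark adapted retinas. Its change of -0.80 ± 0.24 (SE) did not pass in limma (adjusted p = 0.199) and did with the block (0.00482).

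Genes of the activating arm of the rod cascade differed by about as much. Of 8 measured genes Cngb1, the second channel subunit, fell by 1.00 (SE 0.18, limma adjusted p = 0.0289), 7 did not pass, and all 8 changes were negative, with a median of -0.58; with the block 6 fell. The mean level of the 10 shutoff genes minus that of the activation genes was -0.60, -0.63 and -0.74 in light damaged retinas, against -0.69, -0.68 and -0.79 in dark adapted retinas. These ranges overlap and the difference was 0.06. Sag weighs on it, as the mean of the 9 genes without Sag changed by -0.63, against -0.64 for the activation genes. The activation and rod identity lists share Pde6b, Cnga1 and Gnat1. Against the rod identity list the same subtraction averaged 0.09 ± 0.04 in light damaged and -0.03 ± 0.02 in dark adapted retinas (SD, n = 3 each). Here the groups did not overlap, the lowest light damaged value being 0.054 and the highest dark adapted value -0.0027. Their means differed by 0.12, a small difference beside the list's own change of -0.70.

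In a list of 11 further genes, mostly of recovery and cyclic GMP handling, none passed (limma, 5 had an unadjusted p under 0.05). Of the 11 changes 9 were negative and the median was -0.50, with 6 falls under the block. The disc rim gene Prph2 of the rod identity list is among the 11 and is counted in the 5, the 9 and the 6. Rdh12, a photoreceptor retinol dehydrogenase, had the smallest p (-1.11 ± 0.23, SE, adjusted p = 0.0559, and 0.000838 with the block).

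Most relatives of the 10 in their wider gene families differed little. In none of the 5 families did a gene pass in limma, and 0 or 1 per family had an unadjusted p under 0.05. Of 7 other arrestins and receptor kinases the median change was 0.02. The smallest p was that of Arrb1, the beta-arrestin 1 gene (0.52 ± 0.19, SE, adjusted p = 0.329), and with the block 1 gene fell, the cone arrestin gene Arr3 (-0.90, limma adjusted p = 0.00873 with the block), named after its values were seen. Of 10 other RGS genes and anchors the median was 0.17 and 0 passed with the block; Rgs7, another partner of the beta 5 subunit, read 8.90, 8.93 and 8.89 in light damaged retinas, against 8.71, 8.69 and 7.98 in dark adapted retinas (0.44 ± 0.20, SE, limma adjusted p = 0.489).

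Of 8 other calcium sensors the median was -0.01, and with the block 1 fell, Cabp4, a calcium binding protein of the photoreceptor synapse (-0.70 ± 0.20, SE, limma adjusted p = 0.153, and 0.00344 with the block). Of 7 other guanylate cyclases the median was 0.11 and 0 passed with the block; Gucy1b1, a subunit of the soluble cyclase, had the smallest p (0.26 ± 0.16, SE). Of 10 other exchangers and calcium pumps the median was 0.17, and with the block 1 fell, Slc8a3, a sodium-calcium exchanger gene (-0.50 ± 0.14, SE, limma adjusted p = 0.16, and 0.0213 with the block).

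**Figure D4:**
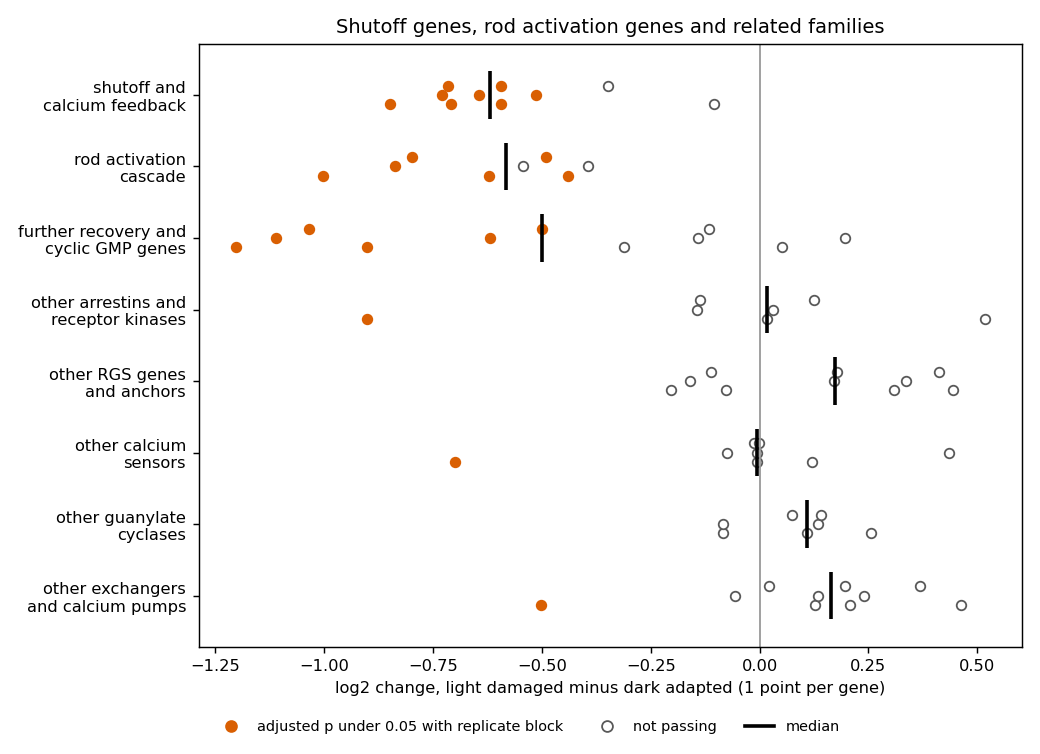
Change of single genes (log2, light damaged minus dark adapted) in the 10 shutoff genes, the rod activation cascade and 6 lists of related genes; each point is a gene, filled where the adjusted p was under 0.05 with the replicate block, and black bars are medians. The medians of the upper 3 lists lie between -0.62 and -0.50, and those of the lower 5 between -0.01 and 0.17. Arr3 and Slc24a2 are each in more than 1 of the lists.

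Markers of other retinal cells were read the same way. Of 10 cone genes 4 fell, Opn1sw with the smallest p (-1.62 ± 0.19, SE, limma adjusted p = 0.00417), and the median was -0.69. With the block 5 fell and 1 rose, Gnb3, the cone transducin beta subunit gene (1.03 ± 0.27, SE, limma adjusted p = 0.000827 with the block), named after its values were seen. Of 8 rod identity genes 1 fell, Nrl (-1.04 ± 0.19, SE, adjusted p = 0.0378), with a median of -0.65; with the block 7 fell. None of 8 bipolar cell genes passed, with or without the block, and Trpm1 had the smallest p (0.30 ± 0.18, SE). Of 10 Müller glia genes none passed, and with the block 4 rose and 3 fell; the smallest p was that of Clu (0.63 ± 0.13, SE, adjusted p = 0.059). Rdh5 (0.82 ± 0.25) and Alas2 (-0.26 ± 0.20) had the smallest p of the pigment epithelium and blood cell lists (SE), in which 0 genes passed in limma and 2 and 0 had an unadjusted p under 0.05. With the block 1 pigment epithelium gene rose, Ttr, the transthyretin gene (0.99 ± 0.34, SE, limma adjusted p = 0.0471 with the block), named after its values were seen. Of 6 reference genes none passed, and with the block 1 rose, Actb (0.70 ± 0.17, SE, limma adjusted p = 0.091, and 0.0112 with the block).

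Promoters were read for the 7 genes of the 10 that the RefSeq promoter table holds (assembly GRCm38.p6), as the 250 bases before the transcript start. The letters TAATCC, the core bound by the photoreceptor factor CRX, were searched on both strands. They occurred in the windows of Sag, Gnb5, Gucy2e and Guca1a, so in 4 of 7 windows, against 6.25% of all 32851 windows, and in each as the reverse complement GGATTA, beginning 87, 6, 42 and 57 bases before the start. The shorter TAATC, which lies within TAATCC, occurred in 5 of 7 windows and in 19.8% of all, and TGCTGA, a MAF half-site of the kind bound by NRL, in 2 of 7 (Sag and Rgs9) and in 16.1% of all. A match describes letters, not binding. Both the gene with the smallest change (Sag) and genes that fell with the block (Gnb5, Gucy2e, Guca1a) hold the core. Slc24a1, with the largest change, does not, nor do Grk1 and Rgs9, which also fell with the block. The windows of Sag, Gucy2e, Guca1a and Slc24a1 are given as examples with and without the core, from 5′ to 3′ on the strand of the gene, with GGATTA in capitals.
Sag (chr1:87803430-87803679, plus strand): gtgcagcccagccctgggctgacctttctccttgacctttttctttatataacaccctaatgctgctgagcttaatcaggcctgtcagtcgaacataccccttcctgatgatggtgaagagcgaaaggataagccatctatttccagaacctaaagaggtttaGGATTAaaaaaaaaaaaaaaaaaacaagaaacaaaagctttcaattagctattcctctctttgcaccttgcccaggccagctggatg
Gucy2e (chr11:69237023-69237272, minus strand): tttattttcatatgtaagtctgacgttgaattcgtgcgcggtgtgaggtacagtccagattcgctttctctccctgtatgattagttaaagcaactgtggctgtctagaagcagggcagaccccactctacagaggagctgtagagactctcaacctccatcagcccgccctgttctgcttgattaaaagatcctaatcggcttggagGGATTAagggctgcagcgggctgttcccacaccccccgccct
Guca1a (chr17:47400607-47400856, minus strand): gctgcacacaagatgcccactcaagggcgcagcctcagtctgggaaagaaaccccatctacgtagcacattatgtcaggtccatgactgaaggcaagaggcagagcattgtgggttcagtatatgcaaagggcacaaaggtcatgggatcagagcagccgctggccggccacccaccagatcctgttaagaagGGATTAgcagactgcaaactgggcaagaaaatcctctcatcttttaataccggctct
Slc24a1 (chr9:64951621-64951870, minus strand): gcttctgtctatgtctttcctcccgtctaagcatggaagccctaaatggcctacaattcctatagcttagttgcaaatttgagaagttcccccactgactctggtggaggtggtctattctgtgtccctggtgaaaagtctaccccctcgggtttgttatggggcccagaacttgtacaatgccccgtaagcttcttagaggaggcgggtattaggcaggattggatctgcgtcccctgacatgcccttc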

How the data were processed

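Retinal RNA was read on 6 arrays, 3 per group as their titles say. The authors' tool was RMA, per the submitters' processing notes, its version being not given in the sources used here. Judged by their range (3.30 to 13.89), the deposited values are on a log2 scale; they were analysed as they stand. Of 45101 probe sets, 34945 had 1 gene in GEO's platform annotation, 932 several and 9160 none; 64 were controls. Symbols were matched by Entrez identifier to RefSeq (GRCm38.p6). Each gene was read by its probe set of highest mean. Groups were compared with limma 3.58.1 (lmFit, eBayes) in R 4.3.3, over 18193 genes and over 45037 probe sets, with Benjamini-Hochberg adjustment and a threshold of 0.05.

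Same-numbered arrays correlated in their deviations from the group means at 0.731, 0.618 and 0.432, all above 0.1, and were therefore treated as pairs, on this evidence alone; the other combinations lay between -0.480 and 0.009 and are partly fixed by these. The fit was tested on simulated data. The precision is limited by the number of arrays. The 10 genes and all lists were chosen with earlier results of these data known. In each related list the genes named are those past the threshold or else the 1 with the smallest p, with exceptions stated. Alternatives were the block, 2 further scalings, other probe set choices, a filter on dim genes, an intensity trend and leaving out each array.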

Additional observations from a re-analysis of the deposited data

How the results depend on the processing

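All 10 changes stayed negative under the 13 alternatives, except Sag with quantile normalization again (0.011; the cause was not tested). Of 130 planned values, 115 kept direction and side of the threshold and 14 became significant. The median change of the 10 ranged from -0.79 to -0.47. None of the 10 passed in the fit as reported, but 8 did with the replicate block, 3 with quantile normalization again and 1 each with centring on reference genes and with mean values per gene; with 1 array left out 0 to 1 passed. Genes passing as lower made up 0.269% of all as reported, 2.13% with the block, 0.89% with quantile normalization again, 0.605% with centring and 0.352% with mean values. With 1 array left out this share was 0.0495% to 0.451%. Of the 14 probe sets 0 passed, against 5 with the block, 1 with quantile normalization again and 1 with centring. Over all 45037 probe sets 569 passed with quantile normalization again and 384 with centring. The genes passing numbered 365, 1613 with the block and 151 to 417 with 1 array left out; the probe sets 458 (1.02%), 2109 (4.68%) and 128 to 380. Without both arrays numbered 3 these were 65 and 0, and with the block too 3166 and 5194. The latter fit called 9 of the 10 genes and 10 of the 14 probe sets, where 6.6% of all genes passed as lower. It leaves 1 residual degree of freedom and leans on limma's prior. With 1 array left out, the Rgs9 probe sets 1418691_at (-0.12 to 0.0082) and 1426033_at (-0.57 to 0.25) changed sign. Reference gene centring moved the median of all genes from 0.03 to -0.14. The replicate block changed no further call of the 10: Sag and Guca1b stayed above the threshold (0.608 and 0.154).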
